A study of Homo sapiens with 4 samples.

Results

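The genes described here encode proteins that carry cells from G1 into S phase and copy the DNA: E2F transcription factors, cyclin E, the factors that license and fire replication origins, the MCM helicase, polymerases with their clamp, enzymes that make DNA precursors, chromatin assembly factors, and repair or checkpoint proteins that act at replication forks. They are 38 named genes, matched by symbol among 60675 genes in the deposited tables, and all 38 passed the filter on low counts that left 16538 genes for testing. Their mRNA was measured by poly(A) sequencing in MM134, an established human cell line from a lobular breast cancer that expresses the estrogen receptor. HER2 L755S cells, which carry a substitution in the kinase domain of the receptor tyrosine kinase encoded by ERBB2, were compared with HER2 WT cells. Both lines had been kept for 7 days without estrogen, in phenol red free medium with 5% charcoal-stripped serum, so the cells of both groups were estrogen deprived and no estrogen-treated group is part of the comparison. Each line had 2 libraries, numbered 1 and 2. The sources used here do not say how HER2 was altered, whether a line is a clone, or whether its libraries came from separate cultures, so the spread behind each p-value is that of these libraries and may be technical.

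The total expected count, the number of reads that the authors' software assigned to genes, was 28836397 and 27423259 in HER2 L755S 1 and 2 and 31088398 and 28804785 in HER2 WT 1 and 2. All 10 luminal epithelial markers exceeded 1 TPM (a level per transcript length, scaled to a fixed total) in every library, with summed levels of 8340 and 6530 TPM in HER2 L755S cells and 8990 and 8130 TPM in HER2 WT cells. ESR1, which encodes the estrogen receptor, was at 14.06 and 20.38 TPM in HER2 L755S cells and at 38.52 and 59.89 TPM in HER2 WT cells. Its log2 fold change was -1.29 (adjusted p = 0.15 in edgeR). Of the 10 markers, 4 were higher and 2 lower in HER2 L755S cells without overlap, against 16.9% and 19.3% of all tested genes. None of 11 leukocyte markers exceeded 1 TPM in any library. ERBB2 stood at 2440 and 1200 CPM (counts scaled to a common library total) in HER2 L755S cells and at 1930 and 1940 CPM in HER2 WT cells, and gene tables do not show the substitution itself. Mitochondrial transcripts took 4.03% and 13.5% of counts in HER2 L755S 1 and 2, against 4.4% and 8.83% in HER2 WT 1 and 2. Over the whole table, HER2 L755S cells had 122 genes called higher and 157 called lower with an adjusted p below 0.05 (edgeR's quasi-likelihood test, Benjamini-Hochberg adjustment), which is 1.69% of tested genes.

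Entry into S phase is controlled by the retinoblastoma protein and its relatives, which hold E2F factors in check. Cyclin D with its kinases, and then cyclin E with CDK2, phosphorylate the retinoblastoma protein, and the freed E2F factors turn on the genes for origin licensing, replication and nucleotide synthesis. In estrogen receptor positive breast cancer cells, estrogen drives this step through cyclin D1, and signalling from HER2 can feed into the same step. The licensing factors CDC6 and CDT1 load the MCM2 to MCM7 ring onto origins in G1, and CDC45 and the GINS complex turn that ring into the moving helicase in S phase. The genes of G2 and mitosis form a later wave, known to be controlled largely through other promoter elements.

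That difference in promoter letters can be read in the sequences, which are shown for genes of several steps before their values. A start-site window of 250 bases before to 50 after the start was present in the RefSeq promoter table (GRCh38.p14) for 34 of the 38 genes; E2F8, CCNE2, MCM4 and MCM5 were not matched. An E2F word was taken as TTTCCCGC, TTTCGCGC, TTTGCCGC or TTTGGCGC on either strand, the CCAAT box as CCAAT and the cell cycle homology region (CHR) as TTTGAA, each also on either strand. No letter of one word was excluded for lying in another, so an E2F word can overlap its own reverse complement. Capitals mark the E2F words in the first 4 sequences below, which run 5′ to 3′ along the strand of the gene. E2F1 is a transcription factor of the network itself, CDC6 licenses origins, and MCM2 and MCM6 are subunits of the helicase.
E2F1 (chr20:33686336-33686635, - strand): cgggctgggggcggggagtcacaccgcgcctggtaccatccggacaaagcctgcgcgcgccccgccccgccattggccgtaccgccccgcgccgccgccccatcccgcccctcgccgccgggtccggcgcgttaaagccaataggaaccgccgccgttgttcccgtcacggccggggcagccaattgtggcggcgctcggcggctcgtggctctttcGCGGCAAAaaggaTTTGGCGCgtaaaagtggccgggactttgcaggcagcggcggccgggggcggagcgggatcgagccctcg
CDC6 (chr17:40287629-40287928, + strand): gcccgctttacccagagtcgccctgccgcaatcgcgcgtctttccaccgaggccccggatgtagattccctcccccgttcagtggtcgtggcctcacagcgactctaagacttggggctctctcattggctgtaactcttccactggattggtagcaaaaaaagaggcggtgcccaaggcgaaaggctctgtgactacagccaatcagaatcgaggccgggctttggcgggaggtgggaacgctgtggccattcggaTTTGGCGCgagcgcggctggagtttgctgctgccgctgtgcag
MCM2 (chr3:127598161-127598460, + strand): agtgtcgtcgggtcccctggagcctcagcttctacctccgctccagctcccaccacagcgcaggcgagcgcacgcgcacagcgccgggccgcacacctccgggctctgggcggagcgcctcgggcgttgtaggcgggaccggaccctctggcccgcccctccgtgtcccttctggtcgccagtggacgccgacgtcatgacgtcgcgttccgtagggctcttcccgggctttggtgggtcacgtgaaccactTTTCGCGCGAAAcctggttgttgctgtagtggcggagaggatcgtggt
MCM6 (chr2:135876394-135876693, - strand): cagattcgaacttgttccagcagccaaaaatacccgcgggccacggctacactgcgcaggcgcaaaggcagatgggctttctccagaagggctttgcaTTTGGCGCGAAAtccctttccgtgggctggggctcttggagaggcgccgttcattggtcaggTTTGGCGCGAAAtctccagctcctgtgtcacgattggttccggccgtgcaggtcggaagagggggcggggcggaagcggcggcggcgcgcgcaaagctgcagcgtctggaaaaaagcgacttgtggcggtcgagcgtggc
In the E2F1 window the E2F words began at position -33 and at position -20 from the start. CDC6 had 1 such word, MCM2 had 2 that overlap, and MCM6 had 4 in a pair of overlapping sites starting between -152 and -86. At least 1 E2F word was found for 20 of the 34 genes (58.8%) and for 12 of 36 other genes of the replication machinery (33.3%). It was found for 1090 of 27305 genes of the whole table (3.99%) and for 2 of 43 G2-M and mitosis genes (4.65%). The set of genes is made largely of well-known E2F targets, so the high share describes how such a set is composed.

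The CHR was seen at 1 of the 34 genes (2.94%), which was RRM1, and at 3 of 36 other genes of the replication machinery (8.33%). It was seen at 30 of 43 G2-M and mitosis genes (69.8%) and at 18.2% of all genes. CCAAT was found at 61.8% of the 34 genes and at 61.1% of the other replication machinery genes. It was found at 81.4% of the G2-M and mitosis genes and at 39.7% of all genes. For contrast, the window of CDC20, which drives exit from mitosis through the anaphase-promoting complex and belongs to the G2-M list, and that of RRM1 are printed with CHR and CCAAT words in capitals, either strand, since neither held an E2F word.
RRM1 (chr11:4094435-4094734, + strand): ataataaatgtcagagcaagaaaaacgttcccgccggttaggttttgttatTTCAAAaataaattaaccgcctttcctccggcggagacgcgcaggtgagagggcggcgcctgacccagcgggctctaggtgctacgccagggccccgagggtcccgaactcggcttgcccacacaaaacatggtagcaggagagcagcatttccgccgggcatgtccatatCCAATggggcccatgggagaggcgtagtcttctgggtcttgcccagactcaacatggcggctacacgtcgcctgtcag
CDC20 (chr1:43358731-43359030, + strand): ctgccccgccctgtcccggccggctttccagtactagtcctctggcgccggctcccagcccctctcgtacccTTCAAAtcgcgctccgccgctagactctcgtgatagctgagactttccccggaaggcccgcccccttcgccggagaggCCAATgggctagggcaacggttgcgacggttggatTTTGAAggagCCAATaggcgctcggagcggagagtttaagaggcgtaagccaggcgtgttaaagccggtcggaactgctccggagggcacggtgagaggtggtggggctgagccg
A word match describes these letters, and it is not evidence that a factor was bound in these cells. Only the exact words listed were searched. A gene without an E2F word can still hold a near match, such as TTTGGCGGG in a CDC45 window. The 20 genes with an E2F word had a median log2 fold change (HER2 L755S over HER2 WT) of -0.18, and the 14 genes without one had a median of -0.05. Within replicate number 1 the medians were 0.03 with and -0.02 without an E2F word, and within number 2 they were -0.18 and -0.17.

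None of the 38 G1-S and DNA replication genes differed between HER2 L755S and HER2 WT cells at an adjusted p under 0.05, against the 1.69% of all tested genes given above. That fit had no term for the replicate number, and DESeq2 and limma-voom, also without one, called none of them either. An edgeR fit with such a term called 3 of 38 lower (E2F2, E2F8 and RRM1), where it called 1018 of 16538 tested genes lower. The labels do not say that equal numbers pair the libraries. At an unadjusted p under 0.05, 2 of 38 passed in edgeR without that term (E2F8 and RRM1), where 10.5% of all tested genes did. Both were lower, and 1068 of 16538 tested genes were lower at that p. DESeq2 and limma-voom each found 2 of the 38. Log2 fold changes ran from -0.92 to 0.61, with 24 genes below 0 and 14 above, and 25 genes lay within 0.3 of 0 in either direction. The median was -0.11, against a median of 0 over all tested genes, and it was -0.27 without HER2 L755S 1 and -0.02 without HER2 L755S 2. Standard errors of the log2 fold changes were 0.3 to 0.49, so the lack of a call does not show that levels were equal.

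**Figure D1:**
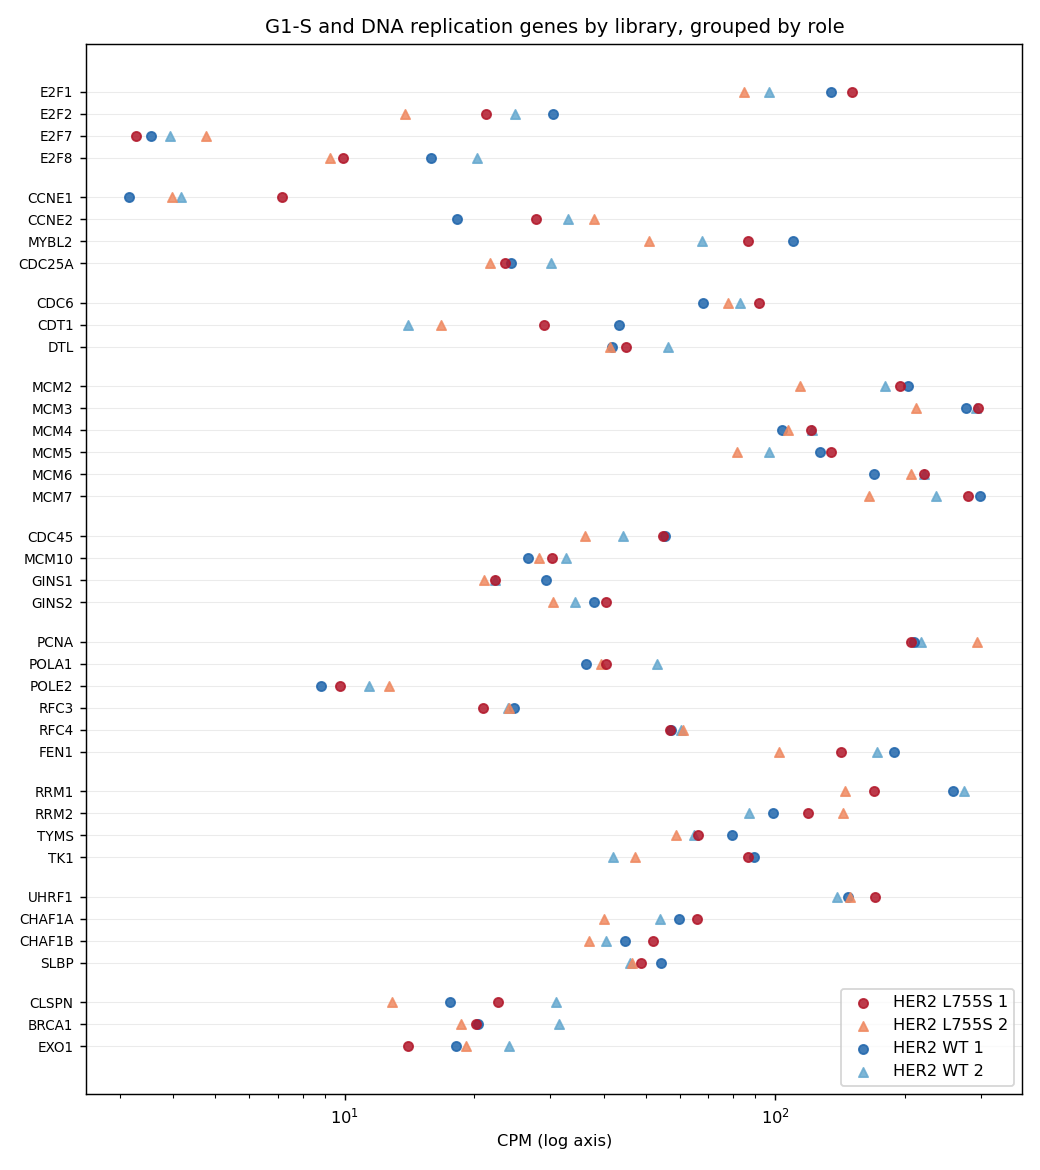
CPM of each of the 38 genes in the 4 libraries on a log axis, 1 row a gene, grouped by role in the order of the text. Each point is 1 library; reds are HER2 L755S and blues HER2 WT, circles number 1 and triangles number 2. For 29 genes the groups overlap, and E2F8, RRM1 and FEN1 are among the 7 whose HER2 L755S points both lie to the left of both HER2 WT points.

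In 7 genes (18.4%) both HER2 L755S libraries lay below both HER2 WT libraries, and over all tested genes this held for 19.3%. They were E2F8, E2F2, RRM1, FEN1, BRCA1, CDC25A and GINS1. Both HER2 L755S libraries lay above both HER2 WT libraries for RRM2 and UHRF1 (2 genes, 5.26%), against 16.9% of all tested genes. The share of lower genes was thus close to the background, and that of higher genes was under it.

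Levels per transcript length differed widely among the genes. PCNA, the sliding clamp, had the highest mean over the 4 libraries at 248 TPM, followed by MCM7 at 131 TPM and MCM3 at 123 TPM. E2F7 had the lowest level at 0.865 TPM, and CCNE1 (3.87 TPM), E2F8 (5.56 TPM) and E2F2 (5.86 TPM) came next. Even so, the lowest expected count of any of the 38 genes in any library was 96, so that none was near the detection floor.

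Of the E2F factors, E2F1 and E2F2 activate the genes of S phase entry and E2F7 and E2F8 repress them. E2F8 (chromosome 11, 19224063 to 19241620 on GRCh38, minus strand) was at 9.91 and 9.23 CPM in HER2 L755S 1 and 2 and at 15.9 and 20.3 CPM in the HER2 WT libraries. It had the lowest log2 fold change of the 38 genes, -0.92 ± 0.35 (SE), with groups that did not overlap and an adjusted p of 0.31 in edgeR. E2F2 was at 21.3 and 13.8 CPM in HER2 L755S cells, below the 30.4 and 24.9 CPM of HER2 WT cells (log2 fold change -0.65 ± 0.36, adjusted p = 0.64 in edgeR).
E2F1 was at 151 and 84.8 CPM in HER2 L755S cells, and at 135 and 97 CPM in HER2 WT cells. Its number 1 libraries were the higher ones in both lines, and the fold change was near 0 (0.02 ± 0.36 on the log2 scale). E2F7 was at 3.28 and 4.75 CPM in HER2 L755S cells and at 3.55 and 3.93 CPM in HER2 WT cells, with overlapping groups. An activator and a repressor were thus among the lower values, while the other activator and the other repressor lay close to 0.

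Cyclin E is the partner of CDK2 at the G1-S transition and has a pair of genes, CCNE1 and CCNE2. CCNE1 was at 7.15 and 3.97 CPM in HER2 L755S cells and at 3.15 and 4.17 CPM in HER2 WT cells, so that HER2 L755S 1 alone stood above the rest. Its log2 fold change of 0.61 ± 0.45 was the highest of the 38 genes, with an adjusted p of 0.84 in edgeR, and without HER2 L755S 1 it was 0.12. CCNE2 was at 27.8 and 37.9 CPM in HER2 L755S cells, against 18.2 and 33 CPM in HER2 WT cells, higher within each replicate number but with overlapping groups. In the GENCODE 29 annotation, 37% of the exon bases of CCNE2 are shared with INTS8 on the opposite strand, and whether the counting used strand is not stated in the sources at hand.
MYBL2, a transcription factor that is itself an E2F target and acts with later cell cycle genes, was at 86.3 and 50.8 CPM in HER2 L755S cells and at 110 and 67.7 CPM in HER2 WT cells. CDC25A, the phosphatase that activates CDK2, averaged 22.7 ± 1.31 CPM in HER2 L755S cells and 27.3 ± 4.14 CPM in HER2 WT cells (SD, n = 2 each). The smallest adjusted p of these genes was 0.84 in edgeR.

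CDC6 and CDT1 load the helicase, and DTL is the substrate receptor of the ubiquitin ligase that removes CDT1 in S phase. CDC6 was at 91.6 and 77.8 CPM in HER2 L755S cells and at 68 and 82.7 CPM in HER2 WT cells. CDT1 was at 29 and 16.7 CPM in HER2 L755S cells and at 43.4 and 14 CPM in HER2 WT cells. Within HER2 WT cells the number 2 library of CDT1 lay far below number 1, with a log2 difference of -1.63 that exceeds every difference between the lines in these 38 genes, and the log2 fold change between the lines was -0.33 ± 0.49. DTL averaged 43.3 ± 2.58 CPM in HER2 L755S cells and 49.1 ± 10.3 CPM in HER2 WT cells (SD, n = 2 each).

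The 6 subunits of the MCM ring were among the abundant genes, at 46 to 131 TPM. MCM2 was at 195 and 114 CPM in HER2 L755S 1 and 2 and at 204 and 180 CPM in the HER2 WT libraries. MCM7 was at 280 and 165 CPM in HER2 L755S cells and at 299 and 237 CPM in HER2 WT cells. In both, HER2 L755S 2 stood lowest of the libraries.
MCM3 was at 296 and 213 CPM in HER2 L755S cells and at 277 and 293 CPM in HER2 WT cells. MCM5 was at 135 and 81.4 CPM in HER2 L755S cells and at 127 and 96.8 CPM in HER2 WT cells. For these genes too the lowest library was HER2 L755S 2. MCM4 was at 121 and 107 CPM in HER2 L755S cells, against 104 and 122 CPM in HER2 WT cells. MCM6 was at 222 and 207 CPM in HER2 L755S cells, against 170 and 222 CPM in HER2 WT cells, and for MCM4 and MCM6 the lowest library was HER2 WT 1. Log2 fold changes of the 6 subunits ran from -0.32 to 0.13. In pair 2 all 6 subunits were below 0, from -0.66 to -0.1, whereas in pair 1 they ran from -0.09 to 0.38. Of MCM2, 22.7% of exon bases are shared with an antisense gene, and of MCM7 8.94% are shared with AP4M1.

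CDC45 and the GINS subunits GINS1 and GINS2 complete the active helicase, and MCM10 takes part in its activation. CDC45 averaged 45.6 ± 13.3 CPM in HER2 L755S cells and 50 ± 7.94 CPM in HER2 WT cells (SD, n = 2 each). MCM10 averaged 29.3 ± 1.5 CPM in HER2 L755S cells and 29.6 ± 4.27 CPM in HER2 WT cells. GINS1 averaged 21.7 ± 0.859 CPM in HER2 L755S cells and 25.9 ± 4.88 CPM in HER2 WT cells, where HER2 WT 1 stood above the rest. The log2 fold changes of these 4 genes lay between -0.25 (GINS1) and -0.02 (MCM10), and each was below 0 in pair 2.

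Of the polymerase genes and their accessory factors, PCNA was at 207 and 295 CPM in HER2 L755S cells and at 210 and 218 CPM in HER2 WT cells. HER2 L755S 2, the library that was low in most of the MCM genes, was the highest for PCNA. FEN1, the flap endonuclease that trims Okazaki fragments (chromosome 11, 61792637 to 61797244, plus strand), was at 142 and 102 CPM in HER2 L755S cells and at 189 and 172 CPM in HER2 WT cells. The groups did not overlap, and the log2 fold change was -0.57 ± 0.31 with an adjusted p of 0.64 in edgeR. RFC4, a subunit of the clamp loader, averaged 59.1 ± 2.84 CPM in HER2 L755S cells and 58.8 ± 2.06 CPM in HER2 WT cells (SD, n = 2 each), and was among the steadiest genes. RFC3 of the same loader, POLA1 of the priming polymerase and POLE2 of the leading-strand polymerase had log2 fold changes of -0.11, -0.17 and 0.15.

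Ribonucleotide reductase, which makes deoxyribonucleotides, has a large subunit encoded by RRM1 and a small S phase subunit encoded by RRM2, and these genes lay on opposite sides. RRM1 (chromosome 11, 4094707 to 4138876, plus strand) was at 170 and 145 CPM in HER2 L755S cells and at 259 and 274 CPM in HER2 WT cells. RRM2 was at 119 and 144 CPM in HER2 L755S cells and at 98.7 and 86.8 CPM in HER2 WT cells. Neither overlapped between the lines, with log2 fold changes of -0.76 ± 0.3 for RRM1 (adjusted p = 0.34 in edgeR) and 0.51 ± 0.31 for RRM2 (adjusted p = 0.72 in edgeR). RRM2 shares 20.2% of its exon bases with the gene AC007240.1 on the same strand. The difference between the subunits was seen after the values were known and was not tested.
TYMS, which makes thymidylate, was at 66.3 and 58.7 CPM in HER2 L755S cells, against 79.2 and 64.9 CPM in HER2 WT cells, and 39.1% of its exon bases are shared with ENOSF1 on the opposite strand. TK1, the thymidine kinase of the salvage route, was at 86.6 and 47.2 CPM in HER2 L755S cells and at 89.4 and 42 CPM in HER2 WT cells. In TK1 the replicate numbers differed and the lines did not separate, with a log2 fold change of 0.03 ± 0.42.

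UHRF1, which brings maintenance DNA methylation to the replicated strand, was at 171 and 149 CPM in HER2 L755S cells and at 148 and 139 CPM in HER2 WT cells, a difference of 0.15 ± 0.3 on the log2 scale. SLBP, which binds the stem-loop of histone mRNA, was at 48.8 and 46.4 CPM in HER2 L755S cells and at 54.2 and 46.1 CPM in HER2 WT cells. CHAF1A and CHAF1B, subunits of the assembly factor that places histones behind the fork, had log2 fold changes of -0.1 and 0.06. Of the repair and checkpoint genes, BRCA1 was at 20.2 and 18.6 CPM in HER2 L755S cells and at 20.4 and 31.4 CPM in HER2 WT cells, so that HER2 WT 2 alone stood apart. CLSPN, which encodes the checkpoint mediator claspin, was at 22.7 and 12.9 CPM in HER2 L755S cells and at 17.6 and 31 CPM in HER2 WT cells. CLSPN went in opposite directions in the pairs, 0.36 in pair 1 and -1.27 in pair 2 on the log2 scale. EXO1, an exonuclease of mismatch and break repair, had a log2 fold change of -0.35 ± 0.35.

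Because libraries shared replicate numbers, differences were also described within each number, with pair 1 as HER2 L755S 1 over HER2 WT 1 and pair 2 as HER2 L755S 2 over HER2 WT 2. No test goes with a single pair. In pair 1 the genes had a median difference of -0.01 on the log2 scale, and 2 of 38 were lower by over 1.5-fold, where 15.8% of all tested genes were. CCNE1 and CCNE2 were the only 2 of the 38 genes higher by over 1.5-fold in pair 1, a size that 10.2% of all tested genes reached. In pair 2 the median was -0.19, with 7 genes lower by over 1.5-fold (18.4%, against 17.8% of all tested genes) and 1, RRM2, higher (against 15.8%). Signs differed between the pairs for 21 genes, and 28 genes stayed within 1.5-fold in both.

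Libraries of the same line differed from each other as well. HER2 WT 2 was lower than HER2 WT 1 by over 1.5-fold for 3 of the 38 genes and higher for 3, against 19.2% and 16.1% of all tested genes. HER2 L755S 2 was lower than HER2 L755S 1 by over 1.5-fold for 12 genes (31.6%) and higher for 0, against 19% and 17% of all tested genes. In HER2 L755S 2, 20 of the 38 genes (52.6%) had their lowest level of the 4 libraries, which 28.1% of all tested genes had. Among them were MCM2, MCM3, MCM5, MCM7, E2F1, CDC45 and MYBL2, while PCNA, RRM2, CCNE2, E2F7, POLE2 and RFC4 had their highest level there. HER2 L755S 2 was also the library with the largest mitochondrial share, 13.5%. The median of pair 2 was -0.15 without mitochondrial genes in the totals, -0.3 without scaling and -0.55 with the authors' TPM. These shifts were not particular to the 38 genes. Without scaling, the median log2 fold change over all tested genes was -0.07. With TPM, the ratio of HER2 L755S 2 to HER2 WT 2 fell for the summed levels of the other lists too. For the luminal markers the sums were 9770 and 9030 CPM, but 6530 and 8130 TPM. The part of the mitochondrial share in the low levels of the 38 genes in HER2 L755S 2 was not tested.

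**Figure D2:**
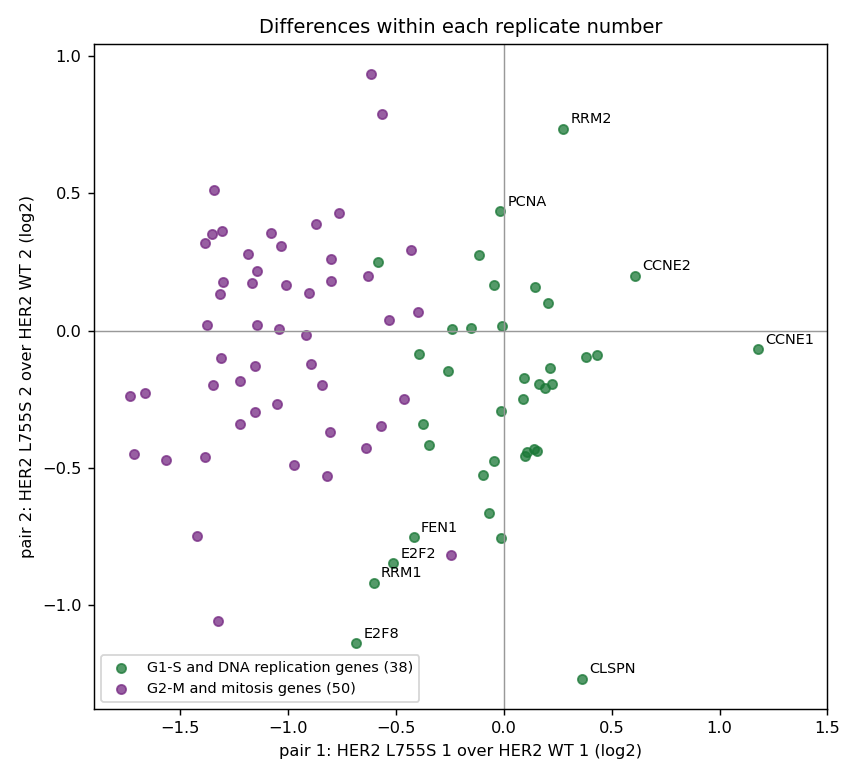
Log2 difference within replicate number 1 (horizontal) and within number 2 (vertical) for the 38 G1-S and DNA replication genes and 50 G2-M and mitosis genes, 1 point a gene. All 50 G2-M genes lie left of 0 in pair 1, with a median of -1.06, and scatter about 0 in pair 2, while the 38 genes centre on -0.01 in pair 1.

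Genes of G2 and mitosis, the later wave of the cell cycle, had a median log2 fold change of -0.52, with both HER2 L755S libraries below both HER2 WT libraries for 20 of 50 genes and above them for 0, against the 19.3% and 16.9% of all tested genes given above. HER2 L755S 1 had the lowest median level of the libraries. The 50 G2-M and mitosis genes had a median log2 difference of -1.06 in pair 1, where 50 of 50 were below 0 and 43 were lower by over 1.5-fold, and of 0.01 in pair 2, where 24 were below 0. In HER2 L755S 1 their median level was -0.67 relative to each gene's mean over the libraries, against 0.13 in HER2 L755S 2 and 0.34 and 0.15 in HER2 WT 1 and 2. The 38 G1-S and DNA replication genes were not low in that library, with medians of 0.07 and -0.19 in HER2 L755S 1 and 2 and of 0.05 and 0.04 in HER2 WT 1 and 2. Summed over the genes, the 38 reached 3210 and 2620 CPM in HER2 L755S cells and 3240 and 3090 CPM in HER2 WT cells. The G2-M list reached 2480 and 4120 CPM in HER2 L755S cells and 4840 and 4240 CPM in HER2 WT cells. The ratio of these sums was therefore 1.29 and 0.636 in HER2 L755S 1 and 2, against 0.669 and 0.729 in HER2 WT 1 and 2. With 1 library carrying that ratio, it cannot be told apart from a feature of the culture or the library. In bulk RNA, fewer cells in a phase and less RNA per cell cannot be told apart either.
MKI67, the proliferation marker Ki-67, was at 83.8 and 130 CPM in HER2 L755S cells and at 165 and 183 CPM in HER2 WT cells. TOP2A, the topoisomerase that untangles sister chromatids, was at 250 and 521 CPM in HER2 L755S cells and at 583 and 659 CPM in HER2 WT cells. Both had groups that did not overlap, with adjusted p of 0.49 for MKI67 and 0.62 for TOP2A in edgeR. The 3 lowest adjusted p of edgeR in this list belonged to INCENP (log2 fold change -1.21, adjusted p = 0.14), CDC20 (-1.17, adjusted p = 0.21) and KIF2C (-1, adjusted p = 0.26). Of the 50, 0 were called by edgeR. At an unadjusted p under 0.05, 6 were lower and 0 higher, against 1068 lower and 674 higher of 16538 tested genes. DESeq2 called 1 of the 50 lower, where it called 309 of 16538 tested genes lower.

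**Figure D3:**
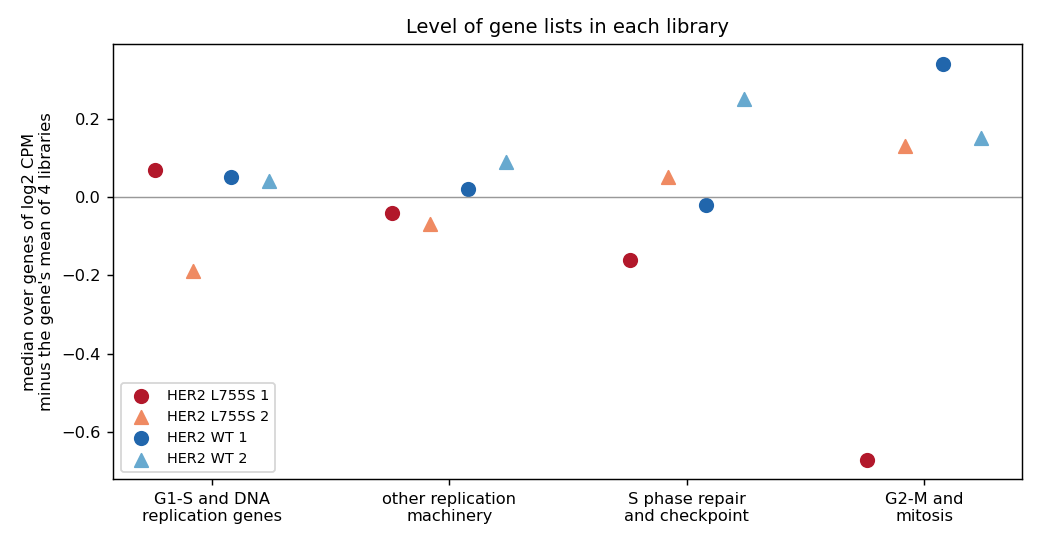
Median over the genes of a list of log2 CPM minus each gene's mean over the 4 libraries, for 4 lists, with 1 point a library (HER2 L755S 1 and 2, then HER2 WT 1 and 2). HER2 L755S 1 stands at -0.67 for the G2-M list and at 0.07 for the G1-S and DNA replication genes, and HER2 L755S 2 is the lowest library, -0.19, for the G1-S and DNA replication genes.

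The 45 other genes of the replication machinery, such as origin recognition subunits, the remaining polymerase subunits and replication protein A, gave no call by edgeR either. At an unadjusted p under 0.05, 2 of the 45 were lower, against 1068 of 16538 tested genes. The median log2 fold change of the 45 was -0.13. POLD3, a subunit of polymerase delta, was at 68.2 and 64.8 CPM in HER2 L755S cells and at 120 and 144 CPM in HER2 WT cells, giving -0.99 ± 0.31 as the log2 fold change and 0.17 as the adjusted p in edgeR. ORC1, the large origin recognition subunit, gave -0.71 on the log2 scale (adjusted p = 0.59 in edgeR), and MTBP, which helps to fire origins, gave -0.86 (adjusted p = 0.46). The 20 nucleotide supply genes, among them the purine enzyme PAICS, had a median of 0.15 with 0 called and 0 at an unadjusted p under 0.05. PAICS was at 278 and 400 CPM in HER2 L755S cells and at 191 and 298 CPM in HER2 WT cells, higher within each number and overlapping between the lines. In the S phase repair and checkpoint list, 29 gene entries with a median of -0.18, 0 were called. WEE1, the kinase that restrains CDK1 and CDK2, was at 52.9 and 56 CPM in HER2 L755S cells and at 86.8 and 103 CPM in HER2 WT cells (log2 fold change -0.8, adjusted p = 0.33 in edgeR), and FANCI and FANCD2 had log2 fold changes of -0.56 and -0.59.
Upstream of the E2F factors, RB1 was at 29.1 and 48.1 CPM in HER2 L755S cells and at 21.6 and 36.9 CPM in HER2 WT cells, and E2F5 had the lowest adjusted p (0.39) of the 18 E2F and pocket protein regulators, with a log2 fold change of -0.81. CCND1, which encodes cyclin D1, was at 3350 and 2620 CPM in HER2 L755S cells and at 6580 and 7020 CPM in HER2 WT cells, without overlap. Its log2 fold change was -1.19 ± 0.28 and its adjusted p 0.066 in edgeR, the lowest of the 15 G1 cyclins, kinases and inhibitors. CDKN1C, which encodes the kinase inhibitor p57, was at 2.97 and 3.04 CPM in HER2 L755S cells and at 13.6 and 6.09 CPM in HER2 WT cells (log2 fold change -1.71, adjusted p = 0.11). The inhibitor genes CDKN1A (p21) and CDKN1B (p27) had log2 fold changes of 0.22 and 0.23, with overlapping groups. None of the 15 was called by edgeR. At an unadjusted p under 0.05, 2 of the 15 were lower, against 1068 of 16538 tested genes. DESeq2 called 2 of the 15 lower, where it called 309 of 16538 tested genes lower.

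Of the low genes among the 38, 3 had a chromosome in common, a pattern looked for after their values were seen. E2F8 and RRM1, the lowest fold changes, and FEN1, which followed them and E2F2, all lie on chromosome 11, had log2 fold changes of -0.92, -0.76 and -0.57, and were the only 3 of the 38 genes on that chromosome. The other 35 genes ran from -0.65 to 0.61 with a median of -0.08. Among them, E2F2, BRCA1, CDC25A and GINS1 also had both HER2 L755S libraries below both HER2 WT libraries. They lie on chromosomes 1, 17, 3 and 20. Chromosome 11 was 1 of the 3 chromosomes with the lowest medians over tested genes of at least 1 CPM on average. Its 768 genes had a median log2 fold change of -0.26, and 67.3% were below 0. Chromosome 8 had a median of -0.38 and chromosome 1 of -0.19, while medians of the remaining chromosomes lay between -0.01 and 0.16.
Most tested genes within 2.5 Mb of each of the 3 were below 0 as well. The 36 neighbours of RRM1 had a median of -0.44 with 33 below 0, the 25 neighbours of E2F8 a median of -0.41 with 20 below 0, and the 96 neighbours of FEN1 a median of -0.34 with 69 below 0. Relative to these medians, RRM1 was at -0.31, E2F8 at -0.51 and FEN1 at -0.23 on the log2 scale. The neighbourhood medians were below 0 in each pair, for RRM1 -0.48 in pair 1 and -0.59 in pair 2.

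**Figure D4:**
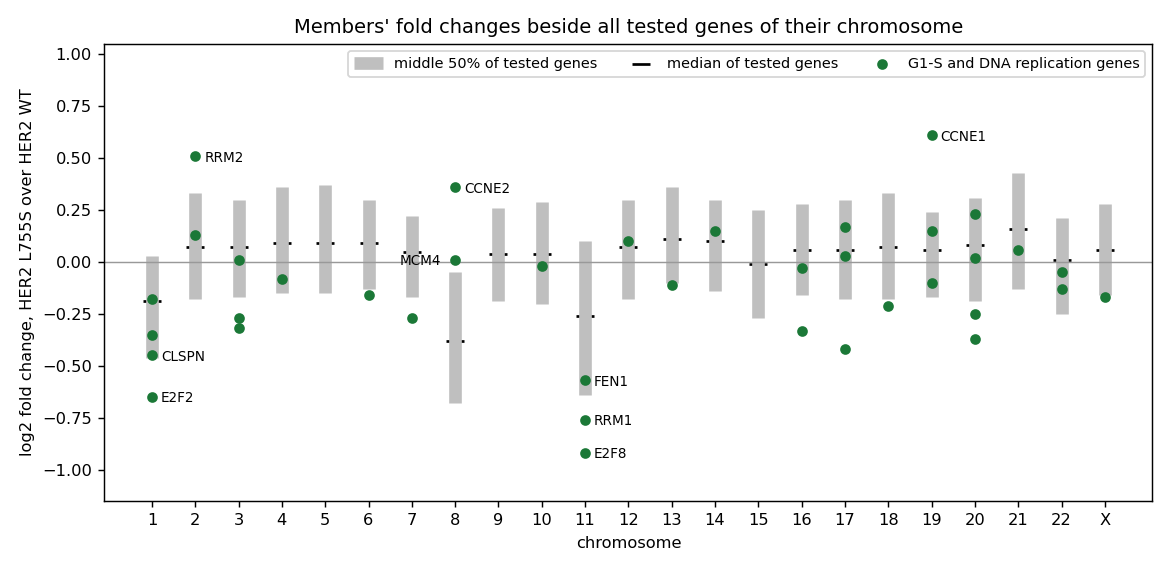
Log2 fold change (HER2 L755S over HER2 WT) of the 38 genes, as points, over the median and the middle 50% of tested genes of each chromosome. The 3 genes of chromosome 11 lie at -0.92, -0.76 and -0.57, below its median of -0.26, whereas CCNE2 and MCM4 lie above the median of chromosome 8, -0.38.

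Several of the low genes named from the other lists lie there too. Of the other cell cycle and replication genes, 8 lie on chromosome 11, namely POLA2, POLD3, CCND1, CDKN1C, INCENP, CHEK1, WEE1 and POLD4, and all 8 were below 0 with a median of -0.9. Of 143 such genes on chromosomes other than 1, 8 and 11, 93 were below 0 with a median of -0.15. Neighbours on chromosome 11 were not uniformly low. Their medians were -0.63 for POLD3, -0.59 for CCND1, -0.49 for WEE1, -0.43 for CDKN1C and -0.31 for INCENP. For POLD4 the median was -0.11, and for CHEK1 it was 0.06, with 9 of 22 neighbours below 0. Relative to these medians, CDKN1C was at -1.28, INCENP at -0.91 and the others between -0.6 (CCND1) and -0.13 (POLD4). On chromosome 1, E2F2, CLSPN, EXO1 and DTL were all below 0, with a median of -0.4. On chromosome 8, neither of the 2 genes was below 0. CCNE2 had a log2 fold change of 0.36 while its 22 neighbours had a median of -0.2, and MCM4 had 0.01 while its 3 tested neighbours had a median of -0.24. The 8 other cell cycle and replication genes on chromosome 8 were all below 0, with a median of -0.5. The part of chromosome position in the levels of E2F8, RRM1 and FEN1 was not tested.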

How the data were processed

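RNA of 4 samples of MM134 cells, 2 of HER2 L755S and 2 of HER2 WT cells, was sequenced after poly(A) selection from 250 ng of total RNA, per the labels' protocols, and groups and replicate numbers were taken from the sample titles. Per the file headers, each deposited table is RSEM output made by the authors, with an expected count per gene (an estimated count, with fractions) and with TPM from the same estimates. STAR, edgeR and GRCh38 are named in the submitters' processing notes. Versions, the annotation release, the strand setting and what was merged in the tables of replicate 2 are not given in the sources used here.

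Expected counts were rounded, of which 9.53% to 11.5% per library were not whole. Genes were filtered with filterByExpr, scaled with TMM (factors 0.937 to 1.04), and compared with edgeR 4.0.16 in R 4.3.3 by the two-sided quasi-likelihood test without a replicate term, adjusted by Benjamini-Hochberg over all 16538 tested genes. Values called CPM use the scaled totals, and differences within a pair use a prior count of 0.5. Apart from an alternative for the pair medians, and list sums set beside it, TPM was used only for the order of genes and for marker genes. Mitochondrial RNA takes a varying share of it. Gene positions and exon overlaps are from GENCODE 29. Reads that match several genes are shared out by RSEM, which can blur near-identical copies.

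The 38 genes and all lists were chosen with earlier results of these data known. Levels in every library were given for a fixed group of the genes, for any called one and for the 4 largest differences in each direction in each pair. FEN1 and UHRF1 met none of these rules, and their levels in every library were given as well. From other lists, genes with the 3 smallest adjusted p and CCND1, CDKN1A, CDKN1B, RB1, MKI67 and TOP2A were eligible for naming. CHEK1, POLA2 and POLD4 were named by chromosome after their values were seen. Most mRNAs of replication-dependent histones lack a poly(A) tail, and of 28 listed symbols 14 were in the tables and 8 were tested. These 8 had a median log2 fold change of -0.11 with 0 called. A list of 11 fibroblast and endothelial markers summed to 37.7 and 14.9 TPM in HER2 L755S cells and to 32.9 and 19 TPM in HER2 WT cells. COL1A1, the only 1 of them above 1 TPM, gave 37.44 and 13.81 TPM in HER2 L755S cells and 32.2 and 17.09 TPM in HER2 WT cells. ATRIP has 2 gene entries, both counted in the S phase repair list, and CDC25C is in both the G1 and the G2-M lists. Alternatives were DESeq2 size factors, no scaling, totals without mitochondrial genes, DESeq2 1.42.0, limma-voom (limma 3.58.1), no filter, at least 50 counts in 2 libraries, a replicate block, a prior count of 5, TPM, and leaving out each library.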

Additional observations from a re-analysis of the deposited data

How the results depend on the processing

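No member of the 38 genes was called under any alternative except the replicate block. It called 3 of 38 lower, where it called 1018 of 16538 tested genes lower. The 3 were E2F2 (adjusted p of 0.04 in edgeR), E2F8 (0.014) and RRM1 (0.017), at log2 fold changes of -0.68, -0.91 and -0.76. The labels do not say that equal numbers mark a shared culture or day. Deviations of same-numbered libraries from their group means had r = 0.425 across 16538 genes, and 2 pairs are too few to show pairing. Log2 fold changes of E2F8, RRM1 and FEN1 stayed below 0 under all 12 alternatives. So did those of E2F2, GINS1, TYMS, RFC3, BRCA1, EXO1 and CDC25A, so this does not set the chromosome 11 genes apart. The members' median was -0.27 to -0.02 when 1 library was left out. In pair 2 it was -0.55 with TPM, a measure that lowered HER2 L755S 2 relative to HER2 WT 2 in the other lists too. Over all genes, 276 higher and 309 lower were called by DESeq2, 328 and 431 with no filter, 725 and 1018 with the replicate block, and 160 to 220 and 184 to 328 when 1 library was left out. In such fits the lone library is assumed to vary like the other group.

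Lower calls in other lists under the replicate block numbered 3 of 45 for the other replication machinery, 2 of 29 for S phase repair and 1 of 18 for E2F and pocket protein regulators. They numbered 2 of 15 for the G1 list and 11 of 50 for the G2-M list, against 1018 of 16538 tested genes. In the G1 list 1 was called lower without mitochondrial genes, 2 by DESeq2, 2 with no filter, and 1 each time that 1 library was left out. In the G2-M list DESeq2 called 1, and leaving out 1 library gave 0 to 2. For the histones, leaving out 1 library gave 0 to 1 higher. The cause was not tested.

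Signs near 0 were not stable. E2F1 was at -0.04 without scaling, -0.01 with limma-voom and -0.02 with the replicate block. Without scaling MCM4 was at -0.05, RFC4 at -0.07 and TK1 at -0.04, and with at least 50 counts MCM4 and RFC4 were at -0.01. For genes whose sign changed, and for E2F2 and CCNE1, whose sign did not, leaving out 1 library gave these ranges of the log2 fold change: E2F1 -0.45 to 0.38, E2F2 -1 to -0.38, CCNE1 0.12 to 0.96, E2F7 -0.19 to 0.35, CCNE2 -0.01 to 0.87, CDT1 -0.92 to 0.7, MCM2 -0.76 to 0.01, MCM3 -0.42 to 0.05, MCM4 -0.11 to 0.15, MCM5 -0.46 to 0.27, MCM6 -0.05 to 0.35, MCM7 -0.7 to 0.06, PCNA -0.05 to 0.46, TK1 -0.48 to 0.67, MYBL2 -0.8 to 0.01, SLBP -0.18 to 0.04, CLSPN -0.92 to 0.02, CDC45 -0.46 to 0.13, MCM10 -0.16 to 0.15, GINS2 -0.25 to 0.16, POLA1 -0.42 to 0.15, POLE2 -0.05 to 0.37, RFC4 -0.05 to 0.06, CHAF1A -0.51 to 0.21, CHAF1B -0.21 to 0.28 and DTL -0.38 to 0.06. With 2 libraries a line, small differences in these genes are not detectable at this replication.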
